A study of Mus musculus with 8 samples.

Results

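The genes described here carry the C-type natriuretic peptide (CNP) signal through cyclic GMP in growth cartilage. They are the ligand gene Nppc, the receptor genes Npr1, Npr2 and Npr3, the kinase genes Prkg1 and Prkg2, and the phosphodiesterase genes Pde5a and Pde9a. They were taken as all array probes designed to a RefSeq transcript of these 8 genes, which gave 12 of the 56605 probes on the array. The genes were chosen by their role in the pathway and on log2 differences between CreTW and Cre that were already known. The differences between genotypes below are therefore a description of these 8 genes and no independent evidence.

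RNA came from femoral growth plate cartilage of 12-day-old littermate mice, 4 of the genotype labelled Cre and 4 of the genotype labelled CreTW, with 1 mouse per array. As background on this study, both genotypes carry a Cre recombinase active in cartilage, so the control animals carry it too, and CreTW cartilage also makes a mutant Twinkle, a helicase needed to copy mitochondrial DNA. The labels name neither the promoter that drives Cre nor the transgene. The series title gives the question, which is how loss of the respiratory chain in cartilage bears on growth. The tissue is not pure chondrocytes, and in bulk RNA fewer cells of a type and less RNA per cell cannot be told apart.

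Chondrocytes of the growth plate make CNP and respond to it. CNP binds the receptor encoded by Npr2, whose inner part is a guanylyl cyclase, and the cyclic GMP it makes activates the kinase encoded by Prkg2, which restrains the mitogen-activated kinase cascade below the fibroblast growth factor receptor Fgfr3. The receptor encoded by Npr3 has no cyclase and takes natriuretic peptides out of circulation, and the phosphodiesterases encoded by Pde5a and Pde9a break cyclic GMP down. Loss of Npr2 or Prkg2 stunts the long bones of mice, loss of Npr3 lengthens them, and CNP analogues are given to children with achondroplasia.

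Pde5a was lower and the clearance receptor Npr3 was higher on every CreTW array than on any Cre array. The signalling receptor Npr2 and the chondrocyte kinase Prkg2 had almost the same level in both genotypes, while Nppc and Prkg1 had somewhat higher means in CreTW and Pde9a a lower one, within the spread between mice. Of the 7 genes that could be compared, 1 passed an adjusted p of 0.05 (limma with Benjamini-Hochberg adjustment over 23105 features), and it was Pde5a. Over all features tested, 0.346% passed, 0.229% as higher and 0.117% as lower in CreTW. The choice of genes used this contrast, so nothing is read from the count. Levels are log2 signals relative to the array's 75th percentile, so that 0 is the 75th percentile and -1 is 1 doubling below it. They are compared between arrays for 1 probe at a time and never between genes.

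**Figure D1:**
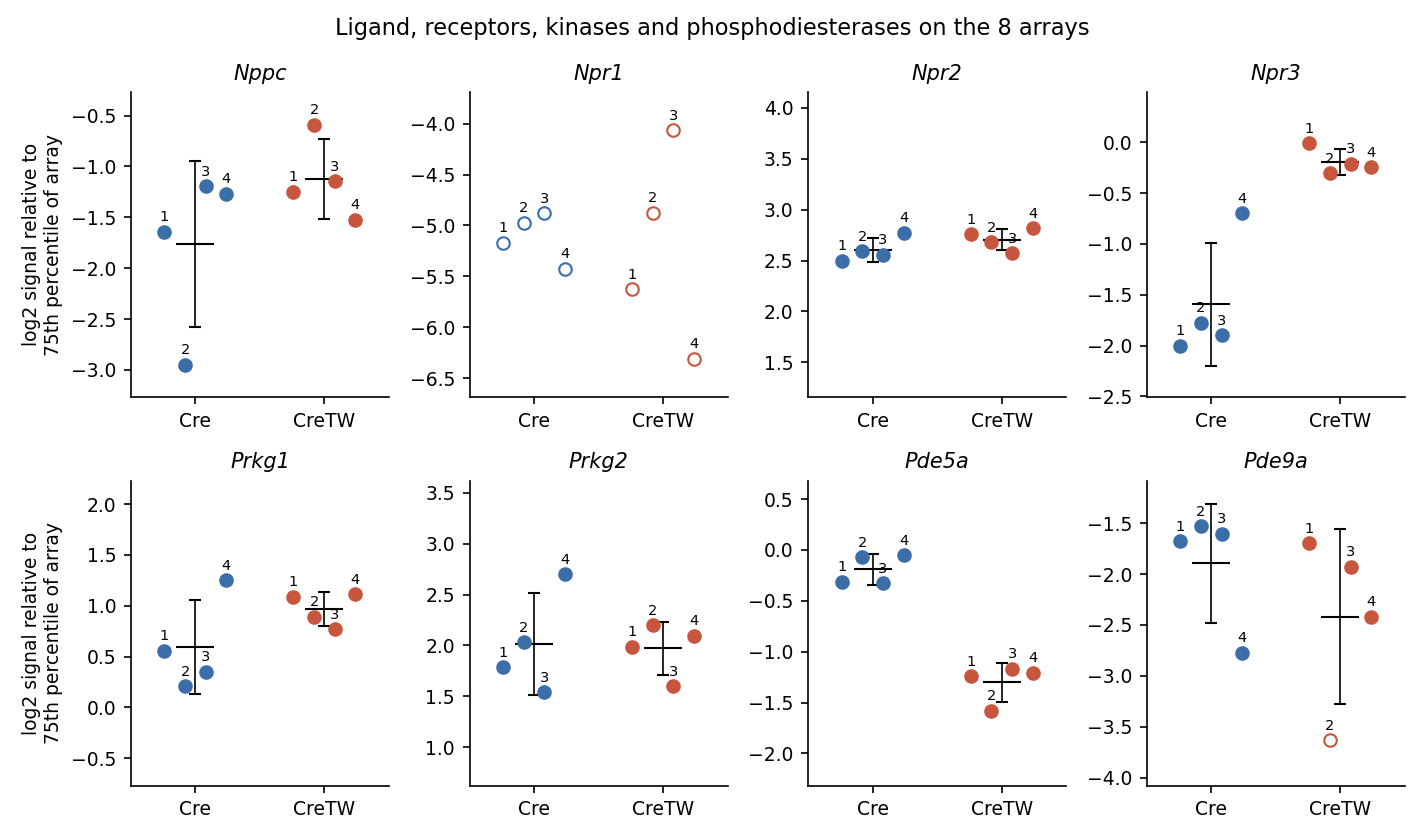
Log2 signal relative to the 75th percentile of the array (vertical axis) for the brightest probe of each of the 8 genes, with 1 point per array, its replicate number above it, and the bar and whiskers giving mean ± SD (n = 4 per genotype, not drawn for Npr1). Open points were not well above background; the 4 CreTW points of Pde5a lie between -1.58 and -1.17, below all Cre points, and those of Npr3 between -0.30 and -0.01, above all Cre points.

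Nppc encodes the CNP precursor, the ligand of this pathway. Its log2 level was -1.64, -2.95, -1.19 and -1.27 on Cre arrays 1 to 4 and -1.25, -0.59, -1.15 and -1.52 on CreTW arrays 1 to 4. The groups overlapped, Cre 2 being the lowest and CreTW 2 the highest array of all. The means were -1.76 ± 0.81 (SD, n = 4) in Cre and -1.13 ± 0.39 (SD, n = 4) in CreTW, and the log2 difference was 0.64 ± 0.39 (SE), with a 95% interval from -0.24 to 1.51. Without Cre 2 the difference was 0.24. Within slide row 1 it was 1.37 and within slide row 2 it was -0.10, so the 2 rows gave opposite signs. These arrays fix neither a higher nor a lower level of the ligand.

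Npr2, which encodes the CNP receptor guanylyl cyclase, was the steadiest of the genes compared. On its brighter probe the log2 level was 2.50, 2.59, 2.56 and 2.77 on Cre arrays 1 to 4 and 2.76, 2.68, 2.57 and 2.82 on CreTW arrays 1 to 4. The values of the 2 genotypes were interleaved, and the pooled within-genotype SD of 0.11 was smaller than that of most features on the array (percentile 18.7 of all tested). The log2 difference was 0.10 ± 0.09 (SE), with a 95% interval from -0.11 to 0.32. The second Npr2 probe gave 0.16 ± 0.13 (SE), with an interval from -0.13 to 0.45. A change of the receptor transcript by 1.5-fold in either direction lies outside both intervals.

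Npr3 encodes the clearance receptor, which binds natriuretic peptides without making cyclic GMP. Its log2 level was -2.00, -1.77, -1.90 and -0.70 on Cre arrays 1 to 4 and -0.01, -0.30, -0.21 and -0.25 on CreTW arrays 1 to 4. The 4 CreTW arrays lay close together and above all Cre arrays, and Cre 4 lay far above the other Cre arrays, 0.40 below the lowest CreTW array. Groups that do not overlap were seen for 6.7% of all features tested, 3.89% with CreTW higher. The means were -1.59 ± 0.60 (SD, n = 4) and -0.19 ± 0.13 (SD, n = 4), a log2 difference of 1.40 ± 0.27 (SE), or 2.64-fold, with a 95% interval from 1.73-fold to 4.03-fold.

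The Npr3 difference did not pass over all features (limma adjusted p = 0.112), and the call moved with 1 array and with the processing. With all 8 arrays it passed under normexp background correction, at 0.78 (adjusted p = 0.0394), and with array weights, at 1.53 (adjusted p = 0.0175). Without Cre 4 it was 1.70 ± 0.11 (SE) with an adjusted p of 0.00242, in a fit in which 0.294% of features passed and 0.208% passed as higher. Without any other single array the difference was 1.27 to 1.44 with adjusted p-values up to 0.32. Within slide row 1, which does not hold Cre 4, it was 1.73 ± 0.17 (SE), and within row 2, which does, it was 1.07 ± 0.40 (SE). The second Npr3 probe, designed to the same transcript NM_008728, was not well above background on any array, so only 1 probe carries this result.

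Npr1 encodes the receptor for atrial and B-type natriuretic peptides. Its probe was not well above background on any of the 8 arrays, with log2 signals from -5.42 to -4.88 on Cre arrays and from -6.31 to -4.06 on CreTW arrays, so no difference was computed. It is the 1 gene of the 8 that the filter on dim probes left out.

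Prkg1 encodes cyclic GMP-dependent kinase I, known above all from smooth muscle and platelets. On its brighter probe, designed to NM_011160, the log2 level was 0.56, 0.21, 0.35 and 1.25 on Cre arrays 1 to 4 and 1.09, 0.89, 0.77 and 1.12 on CreTW arrays 1 to 4. All CreTW arrays lay above Cre 1, 2 and 3, and Cre 4 lay above all CreTW arrays. The log2 difference was 0.37 ± 0.22 (SE), with a 95% interval from -0.12 to 0.87. A probe to the other listed transcript, NM_001013833, had the same arrangement, with Cre values of -1.88, -1.65, -1.64 and -0.87 and CreTW values of -0.92, -1.03, -1.04 and -1.09, and a log2 difference of 0.49 ± 0.20 (SE), with an interval from 0.04 to 0.94 and an adjusted p of 0.437 in limma. Without Cre 4 the brighter probe's difference was 0.59 (limma adjusted p = 0.129), so neither fit called it.

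Prkg2 encodes cyclic GMP-dependent kinase II, the kinase through which CNP acts in chondrocytes. Its log2 level was 1.79, 2.03, 1.54 and 2.70 on Cre arrays 1 to 4 and 1.99, 2.20, 1.60 and 2.10 on CreTW arrays 1 to 4. Cre 4 was again the highest array, and the genotypes overlapped. The log2 difference was -0.04 ± 0.25 (SE), with a 95% interval from -0.61 to 0.52, and the second probe gave 0.07 ± 0.22 (SE). The sign turned with the array left out, from -0.20 without Cre 3 to 0.18 without Cre 4.

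**Figure D2:**
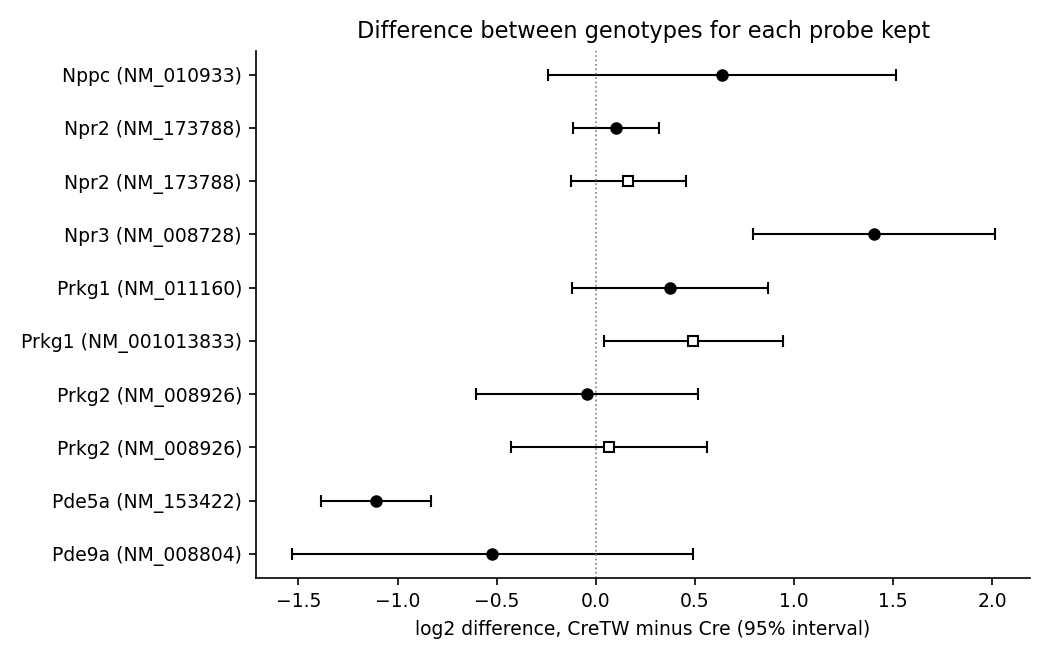
Log2 difference of CreTW minus Cre (horizontal axis) with its 95% interval for each of the 10 probes kept, named by gene and RefSeq transcript; filled circles are the brightest probe of a gene and open squares a second probe. The intervals of Pde5a on the left and of Npr3 on the right lie clear of 0, and that of the second Prkg1 probe starts just above it, at 0.04. The paired probes of Npr2, Prkg1 and Prkg2 lie near each other.

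Pde5a encodes the cyclic GMP-specific phosphodiesterase that sildenafil inhibits. Its log2 level was -0.31, -0.07, -0.33 and -0.05 on Cre arrays 1 to 4 and -1.24, -1.58, -1.17 and -1.21 on CreTW arrays 1 to 4. In each genotype the arrays lay close together, and the highest CreTW array was 0.84 below the lowest Cre array. The share of all features with CreTW wholly below Cre was 2.81%. On the linear scale the signal went from between 79.8% and 96.4% of the 75th percentile in Cre to between 33.4% and 44.5% in CreTW. The means were -0.19 ± 0.15 (SD, n = 4) and -1.30 ± 0.19 (SD, n = 4).

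The log2 difference of Pde5a was -1.11 ± 0.12 (SE), that is 2.16-fold lower in CreTW with a 95% interval from 1.78-fold to 2.61-fold (limma adjusted p = 0.00762). By its p-value Pde5a had rank 33 among all features and rank 20 among the genes with a symbol. Among the genes with a symbol that were lower in CreTW it had rank 1. The choice of genes used this contrast, so these ranks only describe it. It was called without each array in turn, at log2 differences of -1.15 to -1.01. Within slide row 1 it was -1.22 ± 0.18 (SE) and within row 2 it was -1.00 ± 0.18 (SE). The array holds 1 probe of Pde5a by RefSeq transcript, designed to NM_153422, so no second probe stands beside it. With no filter on dim probes the call was lost (adjusted p = 0.0622), and with normexp background correction the log2 difference was -0.64 (adjusted p = 0.0113).

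**Figure D3:**
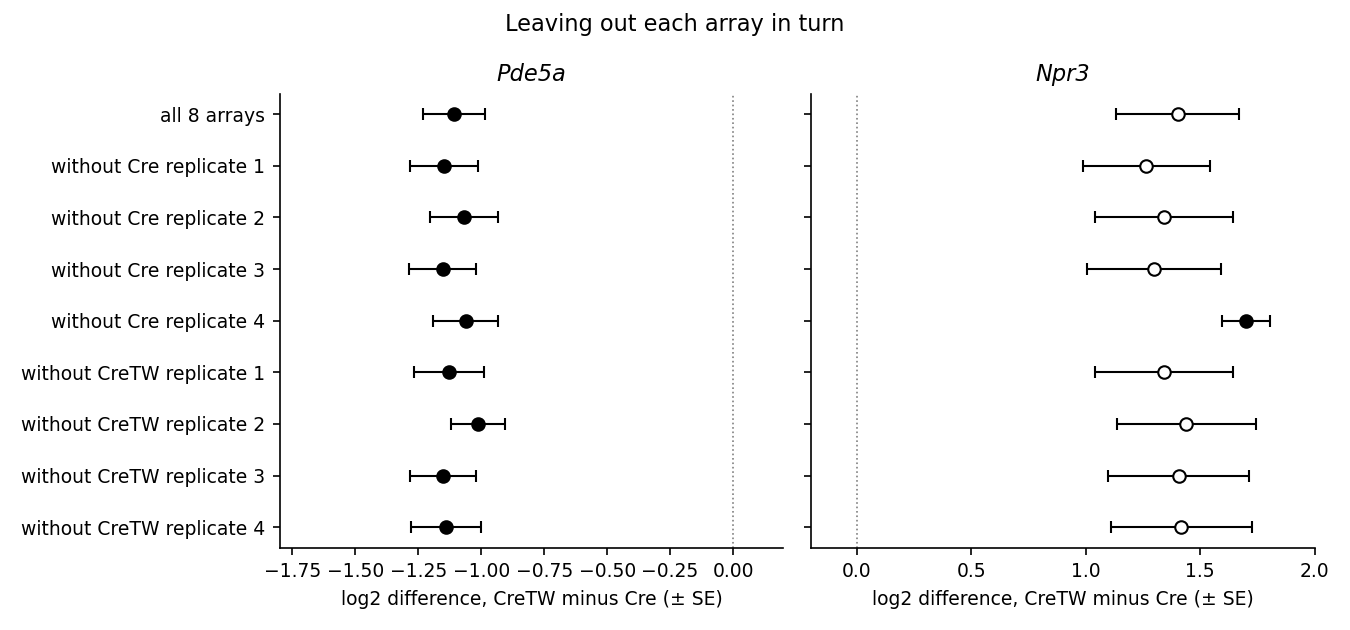
Log2 difference of CreTW minus Cre ± SE (horizontal axis) for Pde5a (left) and Npr3 (right) with all 8 arrays and without each array in turn; filled points passed an adjusted p of 0.05 over all features. Pde5a stays between -1.15 and -1.01 and filled throughout, and Npr3 is filled without Cre 4, at 1.70, and open in the other fits.

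Pde9a encodes another phosphodiesterase that acts on cyclic GMP alone. Its log2 level was -1.68, -1.53, -1.60 and -2.77 on Cre arrays 1 to 4 and -1.70, -3.63, -1.93 and -2.42 on CreTW arrays 1 to 4, and CreTW 2 was not well above background. The groups overlapped, with Cre 4 and CreTW 2 far below the other arrays of their genotype. The log2 difference was -0.52 ± 0.44 (SE), with a 95% interval from -1.53 to 0.49, and its spread within genotypes was wider than that of most features (percentile 97.5). It was -0.12 without CreTW 2 and -0.81 without Cre 4.

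The promoters of Pde5a and Npr3 are shown because these are the genes of the set whose arrays did not overlap between genotypes. Each line is the 250 bases before the start of the gene in RefSeq (build GRCm38.p6), 5′ to 3′ on the gene's strand, with motif matches in capitals. The Pde5a window lies at chr3:122728908-122729157 on the plus strand and the Npr3 window at chr15:11907372-11907621 on the minus strand.
Pde5a: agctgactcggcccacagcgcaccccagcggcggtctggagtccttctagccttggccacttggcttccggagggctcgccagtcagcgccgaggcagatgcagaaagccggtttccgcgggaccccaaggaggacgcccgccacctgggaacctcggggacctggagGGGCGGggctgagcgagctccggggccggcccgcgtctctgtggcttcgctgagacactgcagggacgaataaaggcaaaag
Npr3: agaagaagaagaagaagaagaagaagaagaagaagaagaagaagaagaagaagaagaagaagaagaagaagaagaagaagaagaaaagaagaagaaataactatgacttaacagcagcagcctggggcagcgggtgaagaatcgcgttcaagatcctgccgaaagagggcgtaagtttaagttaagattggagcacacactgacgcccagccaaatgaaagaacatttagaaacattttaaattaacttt

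Both strands were searched for the GC box GGGCGG, the cyclic AMP response element TGACGTCA, the TATA box TATAAA and the ATF4 and C/EBP composite element TGATGNAA. The Pde5a window held 1 GC box, shown in capitals, whose first base is at -82 from the start, and none of the other motifs. The Npr3 window held none of the 4, opens with a long run of AGA repeats, and is 38.8% G and C against 68.4% in Pde5a. Of 32851 promoter windows of the same length, 32.7% held a GC box, 1.55% the cyclic AMP response element, 12.4% the TATA box and 3.45% the composite element. These matches describe letters only. The promoter table matched 6 of the 8 genes.

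One Cre array lay far from the others for several of these genes. Cre 4 lay outside the range of the other 3 Cre arrays for Pde5a, Pde9a, Npr2, Npr3, Prkg1 and Prkg2, upward for all but Pde9a, which is 6 of the 7 genes compared. Over all features Cre 4 lay outside that range for 62.5%, and each other Cre array outside the range of its 3 neighbours for 41.6% to 48.9%. Its distance was ordinary for Pde5a and Npr2 (percentiles 46.4 and 54.5 of all features) and large for Npr3, Pde9a, Prkg1 and Prkg2 (percentiles 95.1 to 97.7). Its distance from the mean of the other Cre arrays was 2.29-fold upward for Npr3, 1.84-fold for Prkg1 and 1.88-fold for Prkg2, and 2.25-fold downward for Pde9a. For Npr3, Prkg1 and Pde9a this put Cre 4 on the side of the CreTW arrays. For Pde5a the distance was 1.14-fold and upward, away from the CreTW arrays. Cre 4 also had the largest median distance from its group of any Cre array over all features (0.202 on the log2 scale, against 0.136 to 0.16). Within CreTW the same distance was 0.121 to 0.191, with CreTW 3 the farthest. All 8 arrays correlated with each other at r of at least 0.972.

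The same array stood apart in its marker genes. The mean centred log2 value of 14 of 14 chondrocyte markers was 0.61 on Cre 4 and between -0.35 and 0.17 on the other Cre arrays. Markers of osteoclasts (8 of 9 measured) were at -0.63 on Cre 4 against 0.66 to 0.89 on the other Cre arrays, those of endothelium (12 of 12) at -0.34 against 0.17 to 0.25, and those of marrow cells (10 of 11) at -1.77 against -0.20 to 2.05. Cre 4 had more chondrocyte signal and less signal of bone and marrow cells than the other Cre arrays. It also had more Npr3, Prkg1 and Prkg2 signal and less Pde9a signal. The part of cell content in the Npr3, Prkg1, Prkg2 and Pde9a values was not tested.

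Markers of other cell types also differed between the genotypes. Skeletal muscle markers (13 of 13) had scores of -3.02 to 0.27 on Cre arrays and -1.03 to 3.36 on CreTW arrays. Their median log2 difference was 4.02. CreTW 1, at -1.03, lay within the Cre range only through Cre 3, at 0.27. It lay above Cre 1, 2 and 4, at -2.12, -3.02 and -2.15. With CreTW 1 alone against the 4 Cre arrays, a comparison chosen after the data were seen, the log2 difference was -1.05 for Pde5a and 1.58 for Npr3. That comparison rests on 1 CreTW array with no replicate and does not match the genotypes for muscle signal. The part of muscle in the Pde5a and Npr3 values was not tested. Vascular smooth muscle and pericyte markers were measured for 10 of 11 genes, Lmod1 not being well above background on any array. Their scores were -0.69 to -0.09 on Cre and 0.20 to 0.42 on CreTW arrays, without overlap and in the direction opposite to Pde5a. Singly, 4 of the 10 had groups that did not overlap, where 6.7% of all features did so. In this list Acta2 was at a log2 difference of 0.97 ± 0.17 (SE, adjusted p = 0.0822) and Tagln at 0.54 ± 0.15 (SE, adjusted p = 0.269), both short of the limma threshold. Myh11 was at 0.23 ± 0.28 (SE, adjusted p = 0.789) and Cnn1 at 0.32 ± 0.62 (SE, adjusted p = 0.886). The part of these cells in the Pde5a and Prkg1 values was not tested.

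Perichondrium, tendon and fibroblast markers (12 of 12) had scores of -0.50 to -0.02 on Cre and 0.10 to 0.36 on CreTW arrays. These scores did not overlap and went in the direction of Npr3. Singly, 4 of the 12 markers had groups that did not overlap, where 6.7% of all features did so. The part of these cells in the Npr3 value was not tested. Chondrocyte markers overlapped between genotypes (-0.47 to 0.16 on CreTW), Col2a1 and Acan standing at -0.05 ± 0.13 (SE) and 0.01 ± 0.14 (SE). Scores of hypertrophic chondrocytes (8 of 8) were 0.08 to 0.27 on Cre and -0.35 to 0.07 on CreTW arrays, in the direction of Pde5a. They only just did not overlap, Cre 3 being at 0.082 and CreTW 3 at 0.068. Of the 8 markers, 0 had groups that did not overlap, and Ibsp and Alpl are also in the osteoblast list. Osteoclast scores (-1.42 to 0.41 on CreTW arrays) overlapped only through Cre 4, at -0.63. Cre 1, 2 and 3, at 0.73, 0.89 and 0.66, lay above all CreTW arrays. The median log2 difference over the osteoclast list was -0.84, also in the direction of Pde5a. The part of both cell types in the Pde5a value was not tested. Scores of endothelium reached from -0.34 to 0.25 on Cre and from -0.39 to 0.36 on CreTW arrays. Those of osteoblasts (9 of 10) reached from -0.41 to 0.49 on Cre and from -0.63 to 0.45 on CreTW arrays. Marrow scores were -1.02 to 0.70 on CreTW arrays. Erythroid markers (3 of 8, with Epb42 not well above background) were at -0.64 to 0.91 on Cre and -1.03 to 0.42 on CreTW. Platelet markers (2 of 6) were at -0.04 to 0.40 on Cre and -0.41 to 0.01 on CreTW. Median log2 differences were also negative, as for Pde5a, over the osteoblast (-0.306), erythroid (-0.623) and platelet (-0.213) lists. The same held for marrow (-0.207), endothelium (-0.105) and chondrocytes (-0.163). The part of these cell types in the Pde5a value was not tested. Of the 99 markers measured, 0 passed in the limma fit and 23 (23.2%) had an unadjusted p under 0.05, against 10.7% of all features.

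**Figure D4:**
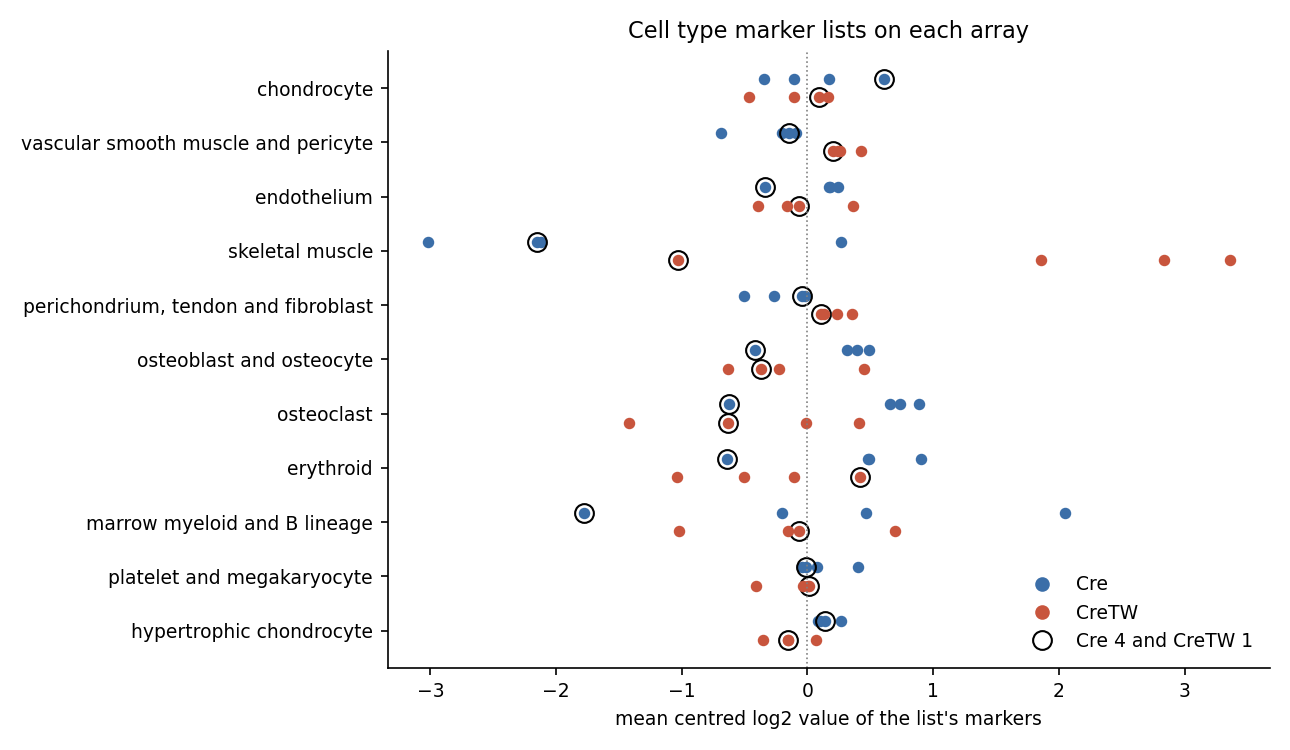
Mean centred log2 value (horizontal axis) of the measured markers of each cell type on the 8 arrays, Cre in blue and CreTW in red, with Cre 4 and CreTW 1 ringed. Skeletal muscle reaches from -3.02 to 3.36, and Cre 4 is the highest array for chondrocyte markers at 0.61. Smooth muscle and perichondrium scores are higher in CreTW without overlap, and hypertrophic chondrocyte scores are lower and only just do not overlap.

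Other genes that make, carry, break down or read cyclic nucleotides were listed by role, and none of those measured passed the test. Of 87 listed genes besides the 8, 65 were measured, 0 passed as higher and 0 as lower in the limma fit, and 10 (15.4%) had an unadjusted p under 0.05, against 10.7% of all features. The groups did not overlap for 6 of the 65 (9.23%), against 6.7% of all features. Their median log2 difference was -0.01, as it was over all features tested.

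Among other ligands, Ostn, whose product osteocrin binds the clearance receptor, was at a log2 difference of 0.17 ± 0.43 (SE). Of the proteases that cut or degrade natriuretic peptides 0 of 5 passed, with Furin, which cuts the CNP precursor, at -0.02 ± 0.14 (SE) and Pcsk6 at -0.19 ± 0.14 (SE). Corin, which activates the atrial peptide, had the largest value of the list, 0.96 ± 0.37 (SE, adjusted p = 0.424), which is why it is named. Its probe cleared background on Cre 4 alone among the Cre arrays and on 3 CreTW arrays. Of the other membrane cyclases 1 was measured, Gucy2d, at -0.03 ± 0.17 (SE).

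The soluble, nitric oxide-driven branch had 0 of 6 genes past the test, with Nos3, the endothelial nitric oxide synthase, at -0.06 ± 0.17 (SE). Gucy1a1, a subunit of soluble guanylyl cyclase, was at -0.83 ± 0.34 (SE, adjusted p = 0.44). Its log2 level was 1.35, 1.49, 1.39 and 0.14 on Cre arrays 1 to 4 and 0.06, -0.12, 0.95 and 0.17 on CreTW arrays 1 to 4. Here too Cre 4 lay with the CreTW arrays, and CreTW 3 lay nearest to the other Cre arrays.

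Pde5a was alone among the phosphodiesterases in passing. Besides Pde5a and Pde9a, 3 Pde6 genes listed by name under the cyclic GMP-specific phosphodiesterases were measured. Of these 0 passed, with Pde6d at 0.09 ± 0.09 (SE) and Pde6g at 0.32 ± 0.26 (SE). What their products do was not examined. Of 7 dual-specificity genes 0 passed, with Pde2a at -0.15 ± 0.22 (SE) and Pde1b at 0.06 ± 0.10 (SE). Of 8 cyclic AMP-specific genes 0 passed. Pde4c was at -0.03 ± 0.11 (SE) and Pde4a at -0.24 ± 0.09 (SE, adjusted p = 0.418). Pde4d, named after its value was seen, was at 0.46 ± 0.13 (SE, adjusted p = 0.274). Pde8a, also named after its value was seen, was at -0.87 ± 0.40 (SE, limma adjusted p = 0.482), the lowest value of the 65 pathway genes measured. Whether the Pde5a difference is larger than that of the other phosphodiesterases was not tested.

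Downstream, 0 of 8 kinase substrates and partners passed. Sox9, whose action in chondrocytes the kinase II restrains, was at -0.29 ± 0.28 (SE), Gsk3b, a kinase it phosphorylates, at 0.09 ± 0.12 (SE), and Itpr1, a calcium channel of the endoplasmic reticulum named after its value was seen, at 0.29 ± 0.09 (SE, adjusted p = 0.286). Of 6 genes of the mitogen-activated kinase step 0 passed, with Fgfr3 at -0.05 ± 0.24 (SE) and Map2k2 at -0.11 ± 0.09 (SE). Of 4 cyclic nucleotide-gated channels 0 passed (Hcn2 at 0.20 ± 0.16 and Cnga3 at 0.11 ± 0.12, SE), and of 2 exporters 0 (Abcc5 at -0.05 ± 0.09 and Abcc4 at -0.0022 ± 0.12, SE).

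In the cyclic AMP branch, 0 of 8 adenylyl cyclases and 0 of 6 subunits of the cyclic AMP kinase passed. Adcy9 was at 0.28 ± 0.08 (SE, adjusted p = 0.254) and Adcy6 at -0.04 ± 0.07 (SE), and Adcy5, named after its value was seen, at 0.38 ± 0.10 (SE, adjusted p = 0.252). Prkacb, a catalytic subunit, was at 0.09 ± 0.09 (SE) and Prkar1a, a regulatory one, at -0.09 ± 0.11 (SE).

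**Figure D5:**
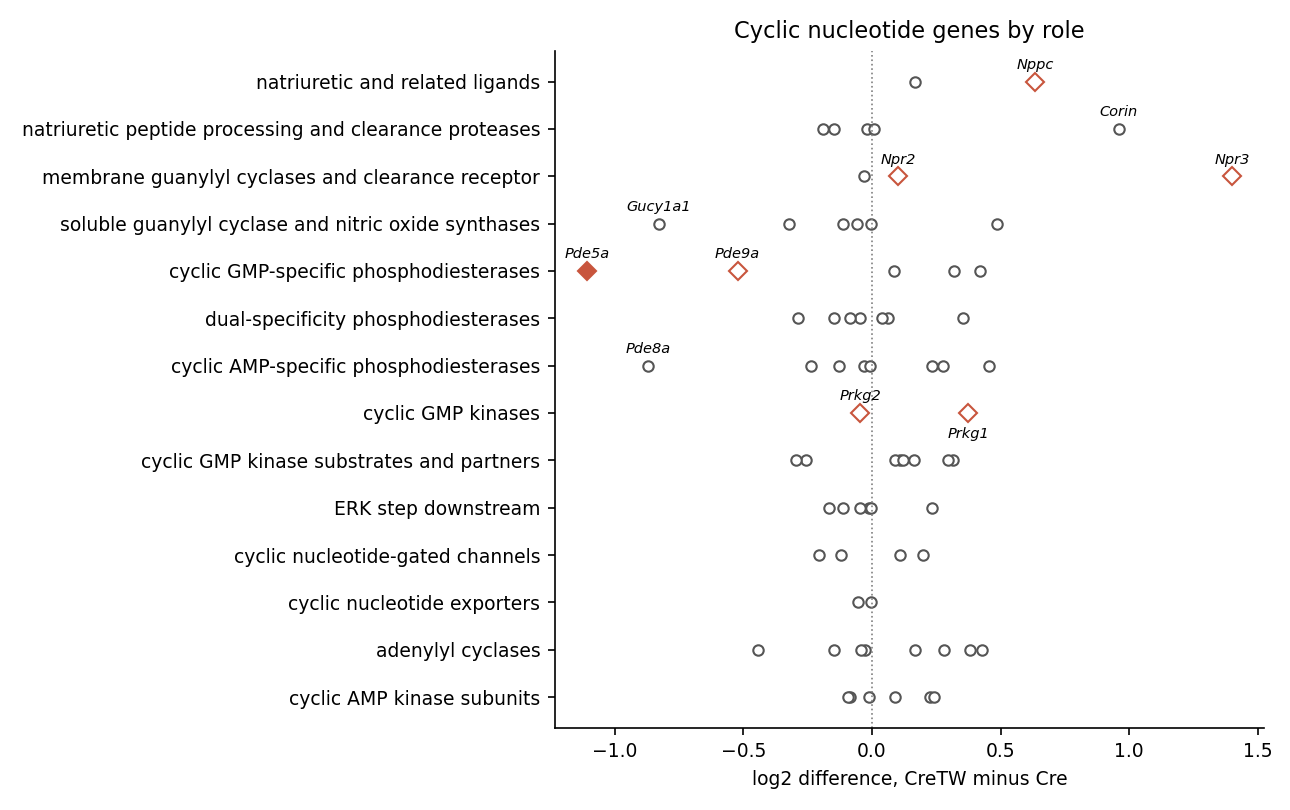
Log2 difference of CreTW minus Cre (horizontal axis) for each measured gene, by role; red diamonds are the genes of the CNP and cyclic GMP set and grey circles the other listed genes, filled where the adjusted p was under 0.05. Pde5a is the 1 filled symbol, Npr3 is the farthest to the right at 1.40, and most other genes lie near 0.

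The features with a symbol whose log2 values followed Pde5a most closely over the 8 arrays were Grtp1 (Pearson r = 0.994), Efhd2 (0.984), Arpc1a (0.974), Ufsp2 (0.968) and Taldo1 (0.967). All 5 were lower in CreTW by value, at log2 differences of -0.69 ± 0.09 (SE) for Grtp1 and -0.36 to -0.28 for the others, and these correlations hold the genotype difference itself. Over deviations from the genotype means, which take that difference out, the closest were Rad51b (0.969), Qpctl (0.962), Clcc1 (0.959), Nkx2-3 (0.959) and Sh2d2a (0.957). No gene was in both sets of 5. Both were drawn from 14126 features over 8 arrays, so values this high describe these arrays alone.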

How the data were processed

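Total RNA (100 ng per array, per the labels) of 8 mice was hybridised to 1-colour Agilent 8x60K arrays. Per the file headers, Feature Extraction 11.5.1.1 read each spot and subtracted background, which gave the processed intensity the authors deposited. The authors worked on the values in GeneSpring, per the labels. Their deposited table holds log2 values that tracked log2 of this intensity with a near-constant shift per array, single probes departing from it by up to 0.487.

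Unflagged spots of each probe were averaged, and log2 signals were set relative to the 75th percentile of their array. A probe was kept if 4 or more of the 8 arrays measured it well above background. Names came through RefSeq transcripts (GRCm38.p6), with no coordinates taken. Of 56605 probes 32994 had 1 symbol, 0 several and 23611 none. The brightest probe stood for a gene, which left 23105 features. Genotypes were compared with limma 3.58.1 in R 4.3.3 (lmFit, eBayes, 6 residual and 2.52 prior degrees of freedom), with Benjamini-Hochberg adjustment at 0.05, and the fit was checked on simulated data. No spot was saturated, the 75th percentile was 144 to 187 scanner units, and the number of arrays limits the precision.

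The members, gene lists and tests were chosen with earlier results of these data known. The text names the 8 genes, listed pathway genes that passed or else the 2 brightest measured of a list, the 5 features most like Pde5a by each measure, and the markers beside a result. Irag1 was matched through a synonym. Replicate numbers were not taken to pair mice, since the deviations of same-numbered arrays correlated at -0.01, -0.10, 0.31 and -0.03.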

Additional observations from a re-analysis of the deposited data

Results flagged for a closer look

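Of 42 groups of 4 arrays looked at (the member probes kept and the marker scores, by genotype), 4 held an array far from the other 3 by Dixon's criterion, which chance meets in about 1 of 20 groups. Pde9a stood at -2.77 on Cre 4, and the nearest Cre array was at -1.68. The endothelium score was -0.339 on Cre 4, the nearest Cre array being at 0.173. The osteoclast score was -0.627 on Cre 4, against 0.659 on the nearest Cre array. The platelet and megakaryocyte score, from 2 genes, was -0.41 on CreTW 3, against -0.0339 on the nearest CreTW array. Of the 4 groups 3 turned on Cre 4, the array without which Npr3 passed. What sets Cre 4 apart was not tested.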

How the results depend on the processing

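The log2 difference of Pde5a was negative and that of Npr3 positive under all 22 alternatives run, Pde5a with an adjusted p under 0.05 in 17 and Npr3 in 3. With normexp background correction on median signals (the mean signal was not used here), Pde5a was at -0.64, Npr3 at 0.78 and 2 of the genes passed, Pde5a and Npr3. Array weights also gave 2 (127 features in all). With no filter on dim probes 0 passed (27 features in all, Pde5a adjusted p = 0.0622), and with the slide row as a block 53 features passed, Pde5a among them (adjusted p = 0.0195). With the replicate number as a block 12 features and 0 of the genes passed by limma (2 at an unadjusted p under 0.05, Pde5a at adjusted p = 0.113). The labels give no pairing by number, and 2 of 8 arrays were closest to their own number. Slide row 1 alone and row 2 alone called 0 features (3164 and 1216 at an unadjusted p under 0.05) and so 0 of the genes. CreTW 1 alone against Cre, chosen after seeing the data, called 1 feature and 0 of the genes. Leaving out single arrays gave 42 to 75 features, 1 to 2 of the genes and 0 other pathway genes; Pde5a was at -1.15 to -1.01 and Npr3 at 1.27 to 1.70. The 2 came without Cre 4. No alternative called another pathway gene. The sign of Prkg2 held in 17 of 22 alternatives, of Pde9a in 19 of 21 and of Nppc in 21 of 22. The cause of these shifts was not tested.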
